A study of Mus musculus with 9 samples.

Results

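Hox genes encode homeodomain transcription factors and lie in 4 clusters, HoxA, HoxB, HoxC and HoxD. All Hox genes with a RefSeq symbol in these clusters were sought, and 38 are described here among 21887 protein-coding genes, namely 10 each of HoxA and HoxB and 9 each of HoxC and HoxD. The data were peak lists from chromatin immunoprecipitation followed by sequencing in mouse oligodendrocyte progenitor cells (OPCs), the dividing precursors of myelinating cells, and in oligodendrocytes (OLs) that carry the surface antigen O1. H3K27ac, a histone acetylation of active promoters and enhancers, had 4 lists, 1 for OPC and 1 for OL of each of the cell lines 129O1 and EpiSC5. SOX6, a transcription factor of the oligodendrocyte lineage, had 3 lists, from OPC of both lines and EpiSC5 OL. The lines are epiblast stem cell lines of the strains 129SvEv (EpiSC5) and 129S1/SvImJ (129O1), in the order in which the labels give them. OPCs were made from them without SHH, sorted for CD140a and NG2 and expanded in bFGF and PDGFA, and O1+ OLs were collected by magnetic sorting. Each line was a single line, so a comparison of lines sets 1 line against another, and OPC and OL of a line share that line. The labels do not say whether lists of 1 state came from separate cultures beyond the line. The 2 inputs, whose titles say ESCs and whose other labels say OPC, were not analysed here.

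Hox genes give cells a position along the head-to-tail axis of the embryo. Their order along a cluster mirrors the order of their anterior limits, a property called colinearity. Low-numbered paralog groups, the sets of matching genes across clusters, are active from the hindbrain backwards, and higher-numbered groups start progressively further back in the spinal cord. Neural cells keep a record of their axial level in the Hox genes they hold active. Silent Hox genes are covered by Polycomb proteins and H3K27 methylation, and the same residue cannot be acetylated at the same time. Retinoic acid, FGF and WNT signals set how far activation travels along a cluster, and PBX and MEIS proteins bind DNA together with Hox proteins.

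The value used for each gene was the length of its RefSeq gene body that lay inside the peaks of a list, in kb or as a share of the body. The H3K27ac lists held 27721 to 33738 peaks, and in each state the 129O1 list was the longer, with 30829 against 27721 peaks in OPC and 33738 against 31005 in OL. The SOX6 lists held 22876 peaks in 129O1 OPC, 15487 in EpiSC5 OPC and 3893 in EpiSC5 OL. The lists hold no read counts, so the depth behind each value is unknown. The OL markers followed the labelled states, and the OPC markers did so in part. Pdgfra, the receptor CD140a of OPCs, was covered over 13.2 and 10.8 kb in 129O1 and EpiSC5 OPC and over 1.77 and 1.16 kb in OL, and 3 of 6 OPC markers were called narrower in OL. Olig1 and Olig2 were covered in full in all 4 H3K27ac lists. Sox10 went the other way, from 2.34 and 2.19 kb in OPC to 4.09 and 4.03 kb in OL, and was not called (limma adjusted p = 0.106). All 7 OL markers were called wider in OL, among them Mbp, a myelin protein gene, at 6.17 and 4.32 kb in OPC and 23.7 and 37.6 kb in OL. Among all genes tested 11.7% were called wider and 9.83% narrower. Mag, Mog and Mobp were at 0 in both OPC lists, so they were tested through OL alone, which fixed their direction. The 5 astrocyte markers summed to 9.2 and 7.1 kb in OPC and 23.2 and 10.1 kb in OL, with Gfap at 0 in both EpiSC5 lists, and 1 of the 4 tested (Aldh1l1) was wider in OL. The 5 neuron markers summed to 5.8 and 5.4 kb in OPC and 9.9 and 6.7 kb in OL, with Stmn2 at 0 throughout and none of 4 called. The 4 microglia markers summed to 0.6 kb in each OPC list and to 3.3 and 2.0 kb in OL, with Cx3cr1 and Aif1 at 0. Csf1r was called wider, but it was at 0 in both OPC lists, which fixed its direction. Of 4 Schwann cell markers Foxd3 and Ngfr were at 0 and Egr2 was narrower in OL, for sums of 4.0 and 2.3 kb in OPC and 2.4 and 1.1 kb in OL. Mnx1, Isl1, Chat and Slc18a3, which mark motor neurons, were at 0 in every list, as were Pou5f1 and Nanog, and the 6 pluripotency markers summed to at most 0.6 kb. The part of these other cell types in the Hox values was not tested.

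H3K27ac lay at the low-numbered end of HoxA and HoxB in all 4 lists and reached the middle of both clusters, and part of HoxD, in the 129O1 lists alone. Of the 38 Hox genes 16 had a peak on the body in 129O1 OPC, 15 in 129O1 OL, 7 in EpiSC5 OPC and 6 in EpiSC5 OL. The 5 genes with a peak in all 4 lists were Hoxa2, Hoxa3, Hoxb2, Hoxb3 and Hoxb4, all of paralog groups 2 to 4. All 4 lists held a peak on 47.6% of all protein-coding genes. A further 9 genes had a peak in both 129O1 lists and in neither EpiSC5 list, namely Hoxa6, Hoxa7, Hoxa9, Hoxb5, Hoxb6, Hoxb7, Hoxb8, Hoxd3 and Hoxd8. That pattern was held by 0.896% of all protein-coding genes, 196 genes, and by 1.11% of those whose bodies were in the length range of the Hox genes (1.78 to 44.0 kb). The reverse, a peak in both EpiSC5 lists and neither 129O1 list, was met by Hoxa4 and by 0.0959% of all genes. No Hox gene had a peak in both OPC lists and neither OL list, against 2.92% of all genes, and none had the reverse, against 1.64%. The remaining 21 Hox genes had no peak in any list, next to 36.6% of all genes and 37.7% of genes of that length range, and Hoxa5 and Hoxa10 had a peak in 3 lists and in 1 list. Fewer cells with an acetylated cluster and less acetylation per cell cannot be told apart in these bulk lists.

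**Figure D1:**
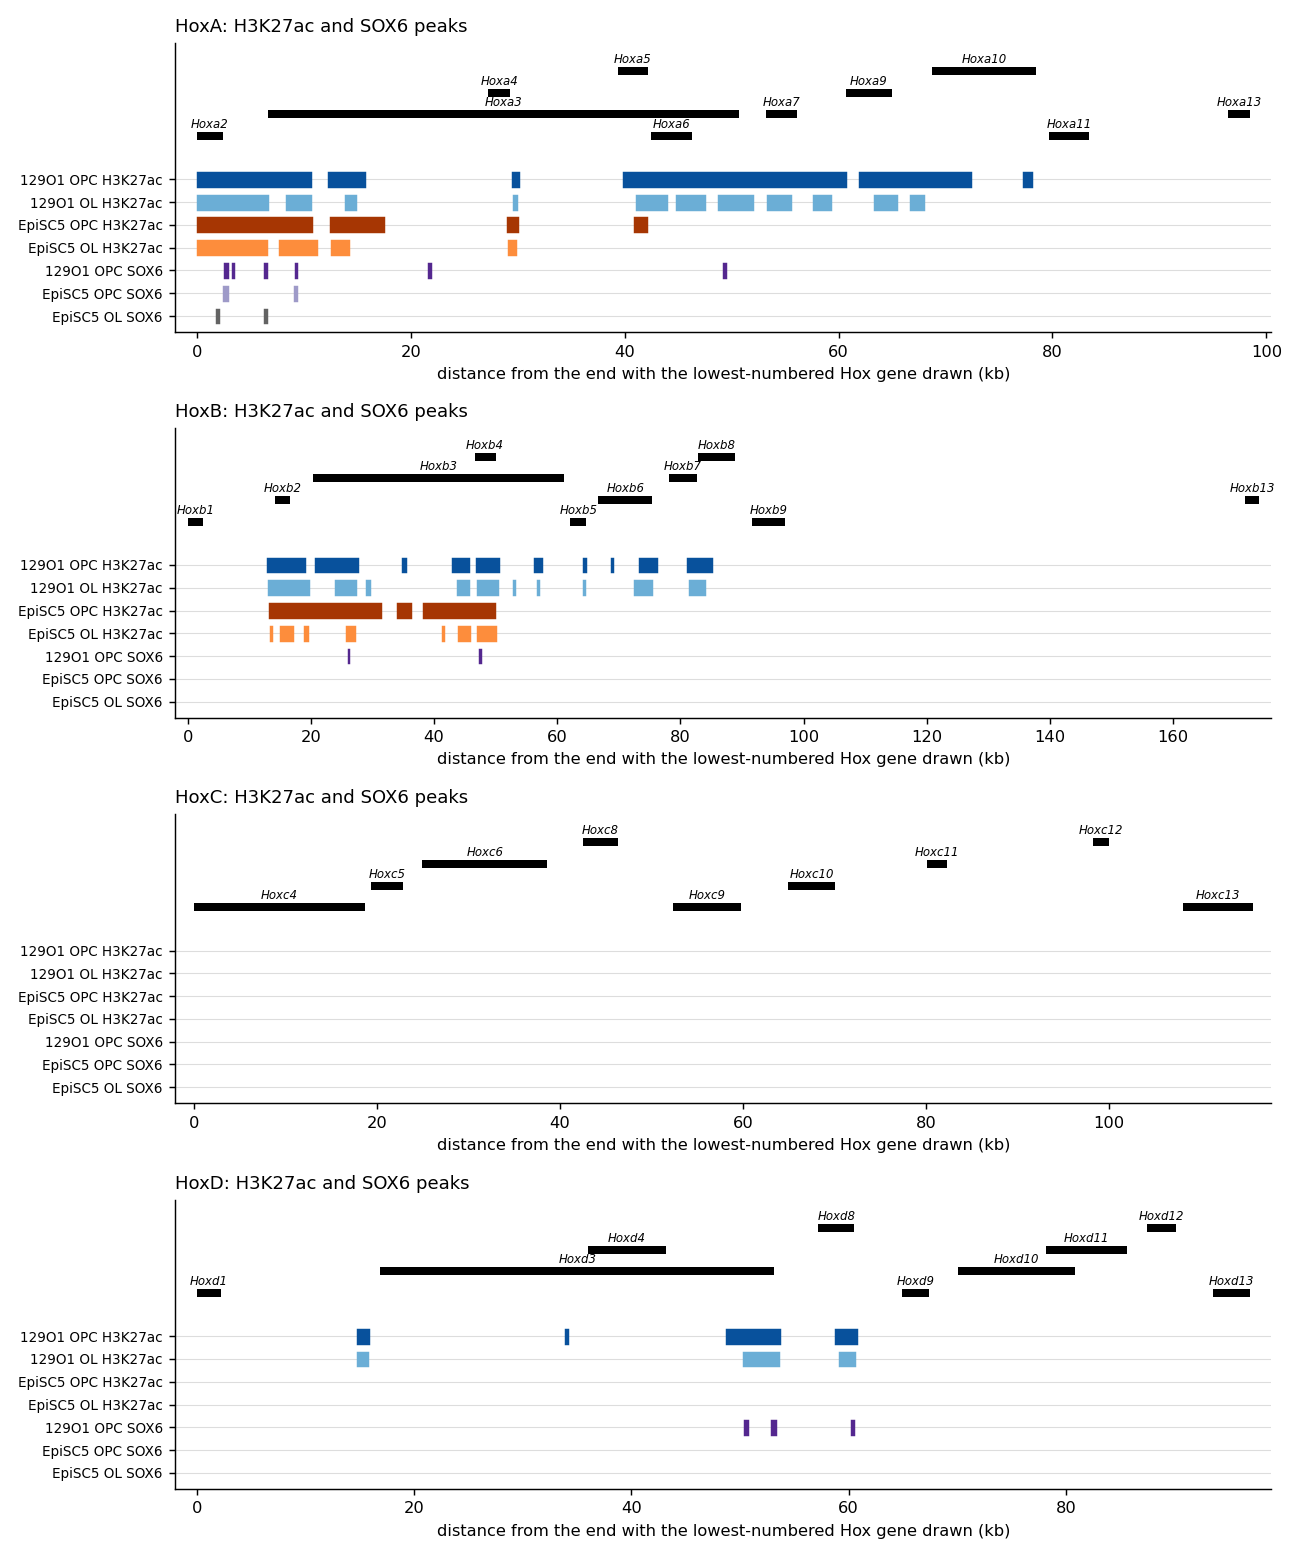
Peaks of the 7 lists (coloured bars, 1 row per list) along the HoxA, HoxB, HoxC and HoxD clusters, with gene bodies as black bars above and distance in kb from the end with the lowest-numbered gene drawn; peaks are clipped at the ends of each cluster. H3K27ac starts at the low-numbered end in HoxA in all 4 lists, extends to 78.0 and 68.0 kb in the 129O1 lists and stops at 42.1 and 29.9 kb in the EpiSC5 lists, and HoxC has no peak.

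In HoxA (chr6:52162417-52260880, GRCm38.p6, 98.5 kb from Hoxa2 to Hoxa13) the gene at the anterior end was acetylated over its full length in every list. Hoxa2, which patterns the hindbrain and the second pharyngeal arch, was covered over all of its 2.42 kb in all 4 lists. A single H3K27ac peak ran across it and beyond it in each list. The 250 bases before its RefSeq start are shown because a SOX6 peak overlapped them in OPC of both lines. They lie at chr6:52164832-52165081 on the minus strand (RefSeq, GRCm38.p6), with the SOX-type motif ACAAT, here read on the opposite strand, in capitals.
Hoxa2 promoter: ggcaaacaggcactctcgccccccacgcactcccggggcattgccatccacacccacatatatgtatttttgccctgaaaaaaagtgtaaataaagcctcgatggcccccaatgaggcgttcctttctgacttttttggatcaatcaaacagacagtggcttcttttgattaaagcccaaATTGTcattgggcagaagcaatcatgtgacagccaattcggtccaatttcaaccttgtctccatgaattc
These 250 bases lay inside the H3K27ac peak in all 4 lists. The marked motif lay under the SOX6 peak of EpiSC5 OPC, near its edge, and outside that of 129O1 OPC.

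Hoxa3, which acts in the hindbrain and in the thymus and parathyroid, has a RefSeq body of 44009 bp that also spans Hoxa4, Hoxa5 and Hoxa6. It was covered over 18.9 kb in 129O1 OPC, 11.4 kb in EpiSC5 OPC, 11.4 kb in 129O1 OL and 6.16 kb in EpiSC5 OL. In each line the OL value was the lower, and in each state the EpiSC5 value was the lower. Without the bases shared with those 3 genes the lengths were 12.7, 9.95, 7.37 and 5.96 kb in the same order, and the 2 middle lists, nearly equal over the whole body, then differed more. Hoxa4, a group 4 gene active from the caudal hindbrain backwards, had 0.254 kb covered in EpiSC5 OPC and 0.208 kb in EpiSC5 OL and none in 129O1. Those bases came from the edge of a peak beside the gene that all 4 lists held. The gene ends at position 52191703, and the peak began at 52191450 and 52191496 in EpiSC5 and at 52191928 and 52191951 in 129O1.

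Beyond Hoxa4 the lists parted. Hoxa5, which acts in the cervical spinal cord and the lung, was covered over 2.35 kb in 129O1 OPC and 1.11 kb in 129O1 OL and over 1.20 kb in EpiSC5 OPC and 0 kb in EpiSC5 OL. It was the highest-numbered HoxA gene with a peak in EpiSC5. Hoxa6, a gene of the brachial and thoracic level, was covered over all of its 3.82 kb in 129O1 OPC and over 2.90 kb in 129O1 OL. Its neighbour Hoxa7 was covered over all of its 2.95 kb in OPC and over 2.20 kb in OL, and Hoxa9, a regulator of blood progenitors and of thoracic level identity, over 3.04 kb and 1.60 kb. Each of these 3 genes was at 0 in both EpiSC5 lists. Hoxa10, which patterns lumbar vertebrae and the uterus, had 4.48 kb in 129O1 OPC and 0 in the other 3 lists. Hoxa11 and Hoxa13, genes of the limb, kidney and genital tract, had no peak.

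The acetylation of these middle genes in 129O1 was broad. In OPC a peak of 20872 bp ran over chr6:52202243-52223114, from Hoxa5 to the 3′ end of the Hoxa9 body. It had a fold enrichment of 6.21 in the authors' list, and 0.0195% of the peaks of that list were wider. A peak of 10494 bp followed across Hoxa9 into Hoxa10. In 129O1 OL the same stretch held separate peaks of 1.36 to 3.33 kb, the best-scoring of them at chr6:52211109-52214440 (−log10 q of 34.7). Score ranks are within 1 list and do not compare lists. The last covered base lay 78.0 kb from the Hoxa2 end in 129O1 OPC and 68.0 kb in 129O1 OL, and 42.1 and 29.9 kb in EpiSC5 OPC and OL. The distance was longer in 129O1 in both states and longer in OPC in both lines, and 2 against 2 lists cannot reach an exact p below 0.33, so it was not tested. The last peak in 129O1 was weak, with a −log10 q of 7.5 in OPC and 3.5 in OL. Those scores were exceeded by 74.5 and 98.1% of the peaks of their lists. The Hoxa9 peak of 129O1 OL had 3.3, exceeded by 99.3%. In EpiSC5 OPC and OL the last peak had 37.5 and 8.6, exceeded by 18.8 and 54.6%.

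HoxB (chr11:96194316-96368254) also carried H3K27ac on its low-numbered genes in all 4 lists, starting 12.9 to 13.3 kb from the Hoxb1 end. Hoxb1, a gene of the hindbrain segment that gives rise to facial motor neurons, had no peak in any list. Hoxb2, its neighbour, was covered over all of its 2.39 kb in both OPC lists and in 129O1 OL and over 1.55 kb in EpiSC5 OL. Hoxb4, known for its role in blood stem cells and as a gene of the caudal hindbrain, kept 3.13 kb in 129O1 OPC and 3.08 kb in 129O1 OL and 3.35 kb in EpiSC5 OPC and 3.04 kb in EpiSC5 OL. That is 90.2 to 99.2% of its body, and the smallest and largest values were both from EpiSC5. Hoxb3, whose RefSeq body of 40830 bp spans Hoxb4, was covered over 15.5 kb in 129O1 OPC and 10.0 kb in 129O1 OL and over 25.2 kb in EpiSC5 OPC and 6.72 kb in EpiSC5 OL. It had the largest drop in EpiSC5 among the Hox genes, and EpiSC5 held both the highest and the lowest of the 4 values. In EpiSC5 OPC a peak of 18247 bp (chr11:96336878-96355124) joined Hoxb2 to Hoxb3, and 0.0108% of the peaks of that list were wider.

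The HoxB genes after Hoxb4 were held by 129O1 alone. Hoxb5, a gene of the cervical level and of enteric neurons, had 0.466 kb in 129O1 OPC and 0.241 kb in 129O1 OL. Hoxb6 had 2.57 and 2.91 kb, Hoxb7 1.62 and 1.31 kb and Hoxb8, also known from a microglial lineage and spinal sensory circuits, 2.27 and 1.12 kb in 129O1 OPC and OL. All 4 genes were at 0 in both EpiSC5 lists, and Hoxb6 was the only one of them with more in OL than in OPC. The values of Hoxb7 and Hoxb8 came from 1 peak across both bodies (chr11:96283053-96287221 in OPC). Hoxb9 and Hoxb13 had no peak. The last covered base lay 85.2 and 84.1 kb from the Hoxb1 end in 129O1 OPC and OL and 50.0 kb in each EpiSC5 list. Beyond it a stretch of 88.7 to 89.9 kb in 129O1 and of 123.9 to 124.0 kb in EpiSC5 had no peak.

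**Figure D2:**
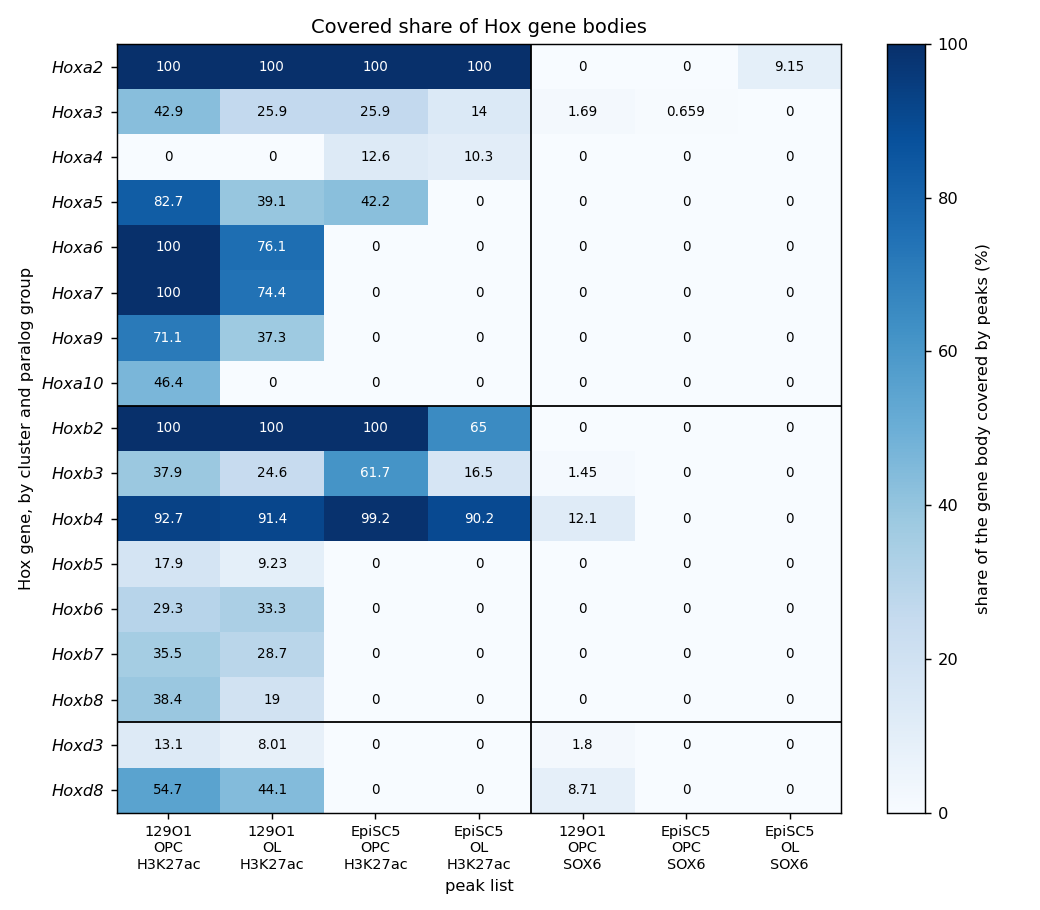
Share of each gene body covered by peaks, in percent (colour and printed value), for the 17 Hox genes with an H3K27ac peak in at least 1 list (rows) in the 7 lists (columns). Hoxa2, Hoxb2 and Hoxb4 are dark in all 4 H3K27ac columns, whereas Hoxa6, Hoxa7, Hoxa9, Hoxb5 to Hoxb8, Hoxd3 and Hoxd8 are at 0 in both EpiSC5 columns.

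HoxD (chr2:74668225-74765142) had peaks in the 129O1 lists alone, and on 2 of its 9 genes. Hoxd3, the group 3 gene that acts in cervical vertebrae, had 4.74 kb in 129O1 OPC and 2.91 kb in 129O1 OL and 0 in both EpiSC5 lists. Almost all of it lay at the start of the body, in 1 peak at chr2:74711475-74716406 in OPC with a fold of 8.29 and a −log10 q of 62.3, a score exceeded by 18.5% of the peaks of that list. Hoxd8, a gene of the trunk, had 1.82 kb in 129O1 OPC and 1.46 kb in 129O1 OL and 0 in EpiSC5. Hoxd4, which lies inside the RefSeq body of Hoxd3, had no peak, nor had Hoxd1 and Hoxd9 to Hoxd13, which include the limb and digit genes. A peak between Hoxd1 and Hoxd3 (chr2:74749272-74750451 in OPC) was also held by both 129O1 lists and touched no Hox body. The 250 bases before the RefSeq starts of Hoxd3 (chr2:74711743-74711992) and Hoxd8 (chr2:74704365-74704614), both on the plus strand, are shown because a SOX6 peak of 129O1 OPC overlapped the former and lay just after the latter. Capitals mark ACAAT or ACAAAG, here on the opposite strand in both.
Hoxd3 promoter: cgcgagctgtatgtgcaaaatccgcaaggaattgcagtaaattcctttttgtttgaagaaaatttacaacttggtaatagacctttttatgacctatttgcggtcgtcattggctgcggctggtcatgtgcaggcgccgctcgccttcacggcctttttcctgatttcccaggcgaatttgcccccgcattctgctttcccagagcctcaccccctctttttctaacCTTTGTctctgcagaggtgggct
Hoxd8 promoter: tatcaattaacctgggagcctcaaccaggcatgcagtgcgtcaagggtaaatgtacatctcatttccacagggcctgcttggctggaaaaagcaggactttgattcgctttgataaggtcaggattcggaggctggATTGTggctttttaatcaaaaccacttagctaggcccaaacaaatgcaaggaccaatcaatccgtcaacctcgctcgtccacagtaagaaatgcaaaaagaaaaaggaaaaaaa
The Hoxd3 bases lay inside an H3K27ac peak of both 129O1 lists.

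HoxC (chr15:102921131-103036856), the cluster that runs from Hoxc4 to Hoxc13, had no base under a peak in any of the 7 lists. All 9 of its genes, including Hoxc8, Hoxc9 and Hoxc10, which separate brachial, thoracic and lumbar motor neuron types, were thus at 0 for H3K27ac and for SOX6. Together the 4 clusters span 485 kb, and H3K27ac covered 17.5% of that in 129O1 OPC, 10.4% in EpiSC5 OPC, 11.4% in 129O1 OL and 4.67% in EpiSC5 OL. In each line the clusters held less in OL than in OPC. In HoxA and HoxD each 129O1 list exceeded the EpiSC5 list of its state, whereas in HoxB the order of the lines in OPC was the reverse of that in OL, at 29.7 kb in 129O1 and 32.4 kb in EpiSC5 for OPC and 22.6 and 9.94 kb for OL. The total length of all peaks in the lists differed less, at 48.7 and 37.2 Mb in OPC and 50.9 and 43.5 Mb in 129O1 and EpiSC5 OL.

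**Figure D3:**
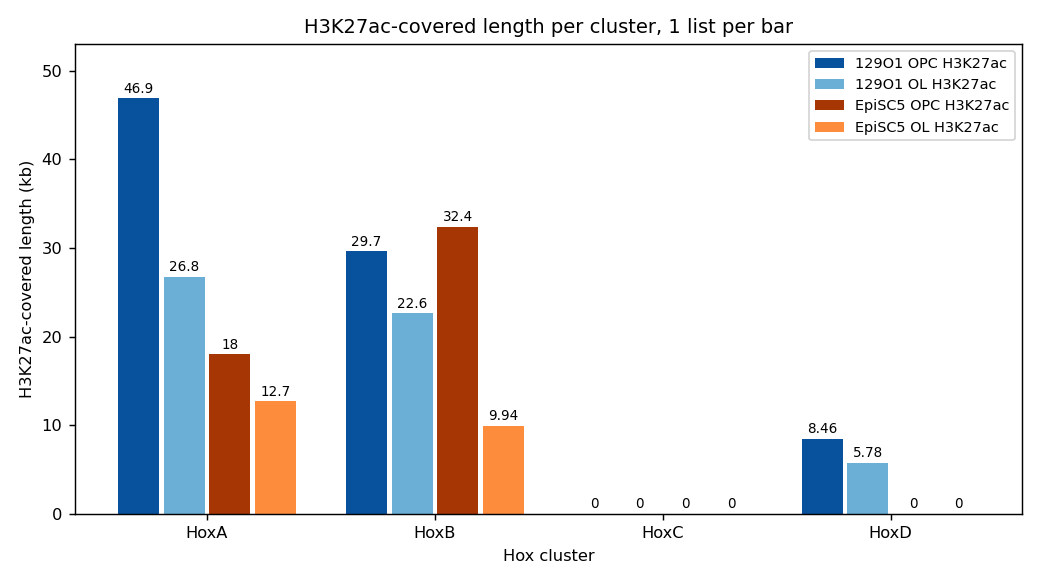
H3K27ac-covered length in kb (bar height, from 0) in each Hox cluster, 1 bar per list and no error bar because each bar is 1 library. HoxA is at 46.9 kb in OPC and 26.8 kb in OL for 129O1 and at 18.0 and 12.7 kb for EpiSC5, HoxD is at 0 in both EpiSC5 lists and HoxC at 0 in all lists.

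For the comparison of the lines, limma was fitted to log2 of the scaled covered kb plus 1 of the 11511 genes whose mean reached 0.5 kb, with state and line as terms. It tested 15 of the 38 Hox genes. Hoxa4 and Hoxb5 had a peak but too little covered length. The median difference between 129O1 and EpiSC5 was 1.22 on the log2 scale over the 15 Hox genes and -0.01 over all genes tested, and 10 of the 15 were higher in 129O1 in both states, against 2612 of all 11511. No gene at all passed the threshold for a line difference in either direction, 0.0% wider in 129O1 and 0.0% wider in EpiSC5, with 9 of the 15 Hox genes and 775 of all genes at an unadjusted p under 0.05. Ranked by that p, Hoxb6 stood at 2 with a difference of 1.80 ± 0.14 (SE), Hoxa6 at 3 with 2.01 ± 0.16, Hoxd3 at 10 with 2.13 ± 0.19 and Hoxa7 at 11 with 1.73 ± 0.16, each with a limma adjusted p of 0.2504. Hoxd8 stood at 20 with 1.31 ± 0.15 and a limma adjusted p of 0.399. The fit has 1 residual degree of freedom, and its p-values rest on the spread between these lists alone, which may be technical. Genes at 0 in a line have no fold, so these differences depend on the added 1 kb. Hoxa6, Hoxa7, Hoxa9, Hoxa10, Hoxb6, Hoxb7, Hoxb8, Hoxd3 and Hoxd8 were at 0 in both EpiSC5 lists. They passed the 0.5 kb filter through 129O1 alone, which fixed their direction. The median, counts and ranks of the Hox genes given here are therefore descriptions and not a test.

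Among the 196 genes held by both 129O1 lists and neither EpiSC5 list, 4 Hox genes were the widest. Ordered by the smaller of their 2 values, Hoxd3, Hoxa6, Hoxb6 and Hoxa7 took ranks 1 to 4, with 2.91, 2.90, 2.57 and 2.20 kb. Hoxa9 stood at 9, Hoxd8 at 11, Hoxb7 at 14, Hoxb8 at 19 and Hoxb5 at 171. Since the 129O1 lists are longer, the count was repeated on equal numbers of peaks per list, a setting chosen after seeing the data, and 7 Hox genes kept the pattern out of 129 genes (0.589%). When the higher-scoring 50% of the 129O1 peaks were set against all EpiSC5 peaks, Hoxa6, Hoxa7, Hoxb7, Hoxb8 and Hoxd3 were 5 of the 22 genes left (0.101%).

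A window of the gene body plus 10 kb on each side gave another outcome in the same limma fit over 14115 genes. It called 9 genes wider in 129O1, which is 0.0638% of those tested, and all 9 were Hox genes. Hoxa7 had the largest difference at 4.01, followed by Hoxa9 at 3.72, Hoxa6 at 3.08, Hoxb6 at 2.94, Hoxd3 at 2.88, Hoxb7 at 2.79, Hoxb8 at 2.71 and Hoxd8 at 2.64, each with a limma adjusted p of 0.0232, and Hoxa5 had 2.28 at 0.0395. It called 2 genes, 0.0142%, wider in EpiSC5, neither of them a Hox gene. These windows overlap from gene to gene within a cluster, so the 9 calls share covered bases and come from 3 clusters. The wider windows of Hoxa7, Hoxa9, Hoxb6, Hoxb7, Hoxb8, Hoxd3 and Hoxd8 still held no EpiSC5 peak. These genes passed the filter through 129O1 alone, which fixed their direction, and their differences depend on the added 1 kb. Their calls are therefore descriptions and not a test. The lists' lengths, the cell line and the strain cannot be told apart in this comparison.

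**Figure D4:**
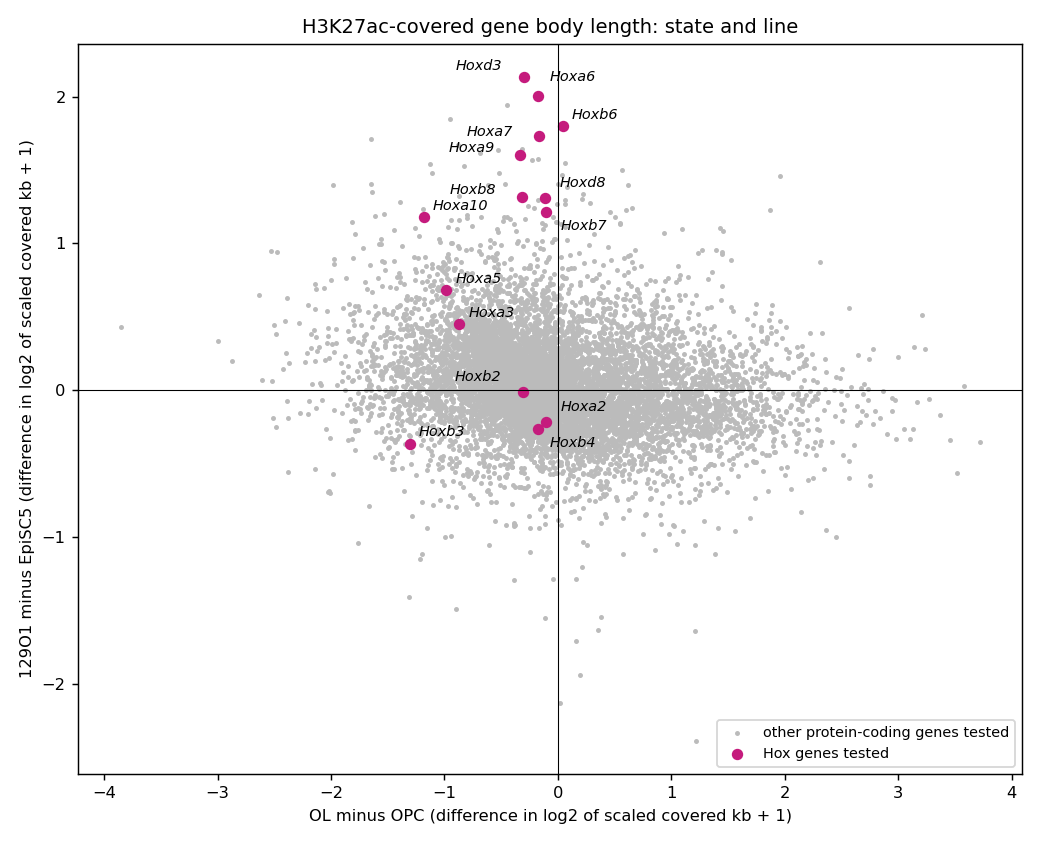
Difference between OL and OPC (x axis) and between 129O1 and EpiSC5 (y axis), both in log2 of scaled covered kb plus 1, for 15 Hox genes (pink, named) and the other genes tested (grey points). Hoxd3, Hoxa6, Hoxb6 and Hoxa7 lie at 1.73 to 2.13 on the y axis near 0 on the x axis, and Hoxa3, Hoxa5 and Hoxb3 lie to the left.

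Between the states, Hox genes narrowed in OL or were not called. The same fit called 2 of the 15 Hox genes narrower in OL, Hoxa3 at -0.87 ± 0.18 (limma adjusted p = 0.0369) and Hoxa5 at -0.98 ± 0.20 (limma adjusted p = 0.0364), each lower in both lines. Among all genes tested 9.83% were called narrower. No Hox gene was called wider, against 11.7% of all genes. Of the 15, 9 were at 0 in both EpiSC5 lists and could not be called in either direction. A call needs the same sign in both lines, and their EpiSC5 difference was 0. The Hox counts are therefore not a like comparison with the shares over all genes. Hoxb3 had -1.31 ± 0.36 and missed the threshold (limma adjusted p = 0.0695), with -0.63 in 129O1 and -1.98 in EpiSC5. Hoxa10 had -1.18 ± 0.58, all of it from 129O1, and was not called (limma adjusted p = 0.204). The median of the 15 genes was -0.30, and that of all genes -0.18. Fully covered genes cannot widen, and the -0.10 of Hoxa2 came from the scaling alone, since its covered length was the same in the 4 lists. The 9 tested genes that EpiSC5 lacked in both states ranged in OL minus OPC from -1.18 (Hoxa10) to 0.04 (Hoxb6), all of it from 129O1. The calls of Hoxa3 and Hoxa5 were lost in several other settings, among them a smaller pseudocount, no scaling and a model without the line. With 10 kb on each side, 6 Hox genes were narrower in OL (Hoxa3, Hoxa5, Hoxa6, Hoxb2, Hoxb3 and Hoxb4), where 17.6% of all genes were. These windows overlap within HoxA and within HoxB, so the 6 calls share covered bases and are not separate results.

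SOX6 was found on few Hox genes. In 129O1 OPC a SOX6 peak lay on 5 of the 38 genes, Hoxa3, Hoxb3, Hoxb4, Hoxd3 and Hoxd8, where 31.9% of all genes and 24.4% of genes of that length range had one. In EpiSC5 OPC it lay on Hoxa3 alone, against 22.8% and 14.6%. In EpiSC5 OL it lay on Hoxa2 alone, against 11.0% and 9.78%. Within the clusters, gene bodies and spaces between them together, there were 11 SOX6 peaks in 129O1 OPC, 2 in EpiSC5 OPC and 2 in OL, and 10 of 11, 2 of 2 and 2 of 2 overlapped an H3K27ac peak of the same cells. Over the whole lists 69.4, 68.0 and 74.1% did. With 1 SOX6 list in OL there was no test between states.

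SOX6 peaks next to Hoxa2 and in Hoxa3 were found in OPC of both lines. Beside the Hoxa2 promoter printed above, a SOX6 peak lay at chr6:52164967-52165380 in 129O1 OPC (fold 8.44, −log10 q 35.7) and at chr6:52164888-52165337 in EpiSC5 OPC (fold 5.97, −log10 q 17.3). Both summits, at 52165196 and 52165108, lay further from Hoxa2 than the printed bases. In EpiSC5 OL the nearest peak was within the Hoxa2 body instead, at chr6:52164235-52164455, with a −log10 q of 6.9. A peak in the 3′ part of the Hoxa3 body was shared by OPC of both lines, at chr6:52171570-52171756 in 129O1 and chr6:52171509-52171798 in EpiSC5. A peak between Hoxa2 and Hoxa3 was shared by 129O1 OPC (chr6:52168752-52168982) and EpiSC5 OL (chr6:52168690-52168945).

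The strongest SOX6 peak of the clusters was in HoxD of 129O1 OPC, the cluster with H3K27ac in the 129O1 lists alone. It lay within Hoxd3 at chr2:74714392-74714770 with a fold of 12.74 and a −log10 q of 62.4, a score exceeded by 14.0% of the peaks of that list. A weaker peak covered part of the Hoxd3 promoter printed above, at chr2:74711836-74712266 with its summit at 74711918 inside those bases, and the Hoxd8 peak at chr2:74704683-74704971 had a fold of 6.49. In HoxB the peaks on Hoxb3 and Hoxb4 were near the low end of their list, with −log10 q of 6.3 and 6.8, scores exceeded by 94.9 and 93.5% of its peaks. The EpiSC5 lists had no SOX6 peak in HoxB or HoxD.

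The RefSeq promoter table, with windows from 250 bases before to 50 after a start, held 24 windows for 22 of the 38 Hox genes. H3K27ac touched 9 of them in 129O1 OPC and 8 in 129O1 OL and 2 in each EpiSC5 list, next to 38.3, 34.5, 35.9 and 27.3% of all 32851 windows in 129O1 OPC and OL and EpiSC5 OPC and OL. The 2 in EpiSC5 were those of Hoxa2 and Hoxb4. SOX6 touched those of Hoxa2 and Hoxd3 in 129O1 OPC, that of Hoxa2 in EpiSC5 OPC and none in OL, next to 11.0, 5.65 and 5.09% of all windows. The motif ACAAT was sought on both strands and was found in 7 of the 24 windows and in 31.0% of all windows, and ACAAAG in 6 and in 18.7%. Either of them was in 12 of 24 and in 42.9%, and the 2 share the letters ACAA, so a single match cannot count for both. The homeodomain core TAAT was in 19 of 24 windows and in 58.0% of all, TGATTNAT, a form bound with a PBX partner, in 2 and in 3.22%, and the nuclear receptor motif AGGTCA in 7 and in 16.3%. The GC content of the 24 windows ranged from 39.7 to 81.0%. These matches are letters in a window and not measured sites.

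The clusters also hold microRNA genes, which are known to repress Hox transcripts. Their mature sequences (RefSeq, GRCm38.p6) are shown with the seed, bases 2 to 8, in capitals. A shared seed joins genes that differed in acetylation on the gene (miR-196) or only in the distance to the nearest peak (miR-10).
mmu-miR-196b-5p: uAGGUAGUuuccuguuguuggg
mmu-miR-196a-5p: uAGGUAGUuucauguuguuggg
mmu-miR-10a-5p: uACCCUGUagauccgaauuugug
mmu-miR-10b-5p: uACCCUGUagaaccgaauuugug
Mir196b, between Hoxa9 and Hoxa10 at chr6:52230081-52230165, lay wholly inside an H3K27ac peak in both 129O1 lists, over its 85 bp, and had none in EpiSC5, where the nearest peak was 25.6 kb away in OPC and 31.1 kb in OL. The peaks over Mir196b were weak, with a −log10 q of 7.0 in 129O1 OPC and 3.5 in 129O1 OL. Those scores were exceeded by 77.1 and 98.1% of the peaks of their lists. Mir196a-1 and Mir196a-2, which share the Mir196b seed and lie in HoxB and HoxC, were at 0 in all lists. Mir10a, next to Hoxb4, had no peak on its hairpin but 1 within 0.46 to 1.02 kb in all 4 H3K27ac lists. Mir10b, in HoxD, had its nearest peak at 4.84 kb in 129O1 OPC and 11.2 kb in 129O1 OL and at 99.4 and 147 kb in EpiSC5. Of the long RNA genes, Hoxb5os was covered over 3.80 and 3.16 kb and Haglr, in HoxD, over 1.18 and 1.01 kb in 129O1 OPC and OL, and both were at 0 in EpiSC5. Hotairm1 was covered over 3.50 kb in all 4 lists, and Hotair, Hottip, Hoxa11os and Mir615 were at 0. Peaks carry no strand.

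Genes of the PBX, MEIS and PKNOX partners of Hox proteins were acetylated in both lines. Pbx3 fell from 13.7 and 13.3 kb in OPC to 6.83 and 8.58 kb in 129O1 and EpiSC5 OL (-0.87, limma adjusted p = 0.0355). Pknox2 rose from 17.0 and 18.3 kb to 30.5 and 31.6 kb (0.65, limma adjusted p = 0.0338). Meis1 had 11.0 and 10.2 kb in OPC and 7.29 and 7.81 kb in OL (-0.57, limma adjusted p = 0.0876), and Meis2 10.0 and 7.07 kb and 7.63 and 5.63 kb (-0.44, limma adjusted p = 0.153). None of these 4 genes differed between the lines at the adjusted threshold, which no gene tested passed.

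Genes that act on the clusters were described from the same lists. Of 19 Polycomb and H3K27 demethylase genes 18 were tested, with a median of -0.32, and Phc1 rose by 1.44 while Ezh1 fell by 1.02 and Cbx6 by 0.67. Ezh1 was at 0 in both OL lists, so it passed the filter through OPC alone, which fixed its direction. Ezh2, the methyltransferase of dividing cells, had 1.89 and 1.85 kb in OPC and 1.77 and 2.23 kb in OL (-0.03). None of 6 Trithorax genes was called. Of 15 upstream regulators and retinoic acid genes 6 were tested, and Egr2, a hindbrain segment regulator that also marks Schwann cells, was narrower in OL (-0.77, limma adjusted p = 0.0369). Cdx1, Cdx2 and Cdx4, which switch on posterior Hox genes in the embryo, were at 0 in all 7 lists, and Rara, a retinoic acid receptor, had 11.8 and 4.94 kb in OPC and 8.12 and 4.81 kb in OL.

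Genes of the forebrain, midbrain and isthmus, the territory ahead of the Hox domain, had a peak on 6 genes in each OPC list and on 4 and 3 in 129O1 and EpiSC5 OL. Of these 12 genes 5 were tested, and Lhx2 (-1.41), Pax5 (-1.11), Gbx2 (-1.05) and En1 (-0.80) were called narrower in OL. Among all genes tested 9.83% were called narrower. Lhx2 and Gbx2 were at 0 in both OL lists. They passed the filter through OPC alone, which fixed their direction. Otx1 had 0.585 and 0.562 kb in OPC and 0.427 and 0.241 kb in OL of 129O1 and EpiSC5, and En2 had 1.41 and 0.999 kb and 1.48 and 1.12 kb. Otx2, Emx1, Emx2, Six3 and Pax2 were at 0 in all 7 lists. None of these 12 anterior genes had a peak in both 129O1 lists and neither EpiSC5 list. Only 0.896% of all protein-coding genes had that pattern, so a list of 12 genes cannot show a lack of it. Of the ParaHox and Evx genes, none of 5 was tested, and Gsx1 did have that pattern, with 0.657 and 0.329 kb in 129O1 OPC and OL and 0 in EpiSC5. Of 14 genes next to the clusters 8 were tested, and Hibadh was wider (0.76) and Cbx5 narrower (-0.93) in OL. Their line median was -0.04. Skap2, next to HoxA, had 5.94 kb in 129O1 and 1.12 kb in EpiSC5 OPC and 5.80 and 2.75 kb in OL, higher in 129O1 in both states, and was not called between the lines (1.07, limma adjusted p = 0.628). Evx1 and Evx2, the nearest neighbours at the posterior ends of HoxA and HoxD, were at 0 in all lists.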

How the data were processed

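Peak lists of 7 of the 9 samples were used. Reads had been handled with bedtools, deepTools, Picard, Bowtie2 2.3.2 and Trim Galore 0.3.1 and build mm10, per the submitters' processing notes, and the peak caller is not given in the sources used here. The deposited values are the authors' fold enrichment (a ratio), −log10 q and score per peak, used only to rank or describe peaks within a list. Genes came from RefSeq GRCm38.p6, the assembly of mm10, and coordinates are 1-based. Covered length per gene body (at least 1 bp) was scaled to equal totals, taken as log2(kb + 1), filtered at a mean of 0.5 kb and tested with limma 3.58.1 (R 4.3.3; trend, terms state and line, prior degrees of freedom 3.36). A call is a Benjamini-Hochberg adjusted p under 0.05 over all genes with the same sign in both lines, or states. The line pairs OPC and OL, per the labels, and entered as the block. The Hox genes and gene lists were chosen with earlier results of these data known. Named genes are all Hox genes with a peak, up to 4 called genes of each list with the largest change and others always given, with their RNA genes; Cdx1, Cdx2, Cdx4, Rara, Gsx1, Otx1, En2, Skap2 and the genes listed at 0 were named after their values were seen. The scripts were tested on simulated data, and 1 Hox gene and some other genes this rule takes are not reported here.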

Additional observations from a re-analysis of the deposited data

Results flagged for a closer look

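Hoxb2 and Hoxb3 had line differences of opposite sign in the 2 states, and the difference was not tested. For Hoxb2 the 129O1 minus EpiSC5 difference was -0.28 in OPC and 0.25 in OL on the log2 scale of scaled covered length. For Hoxb3 it was -1.04 in OPC and 0.31 in OL. The covered length of Hoxb2 was the same in 3 lists, so its OPC value came from the scaling.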

How the results depend on the processing

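In the state comparison the 2 Hox genes called narrower became 0 with a pseudocount of 0.25 kb, with no filter, with no scaling, with the higher-scoring 50% of each list and without the replicate block (the line), 6 with 10 kb on each side, and 0 to 1 when a list was left out, fits in which the lone list of a state is assumed to vary like the others. Over all genes, 1346 wider and 1131 narrower became 875 and 535 with the smaller pseudocount, 809 and 428 with no scaling, 0 and 0 with no filter or the higher-scoring 50%, and 2484 narrower with 10 kb; leaving out a list gave 0 to 919 wider (405 without EpiSC5 OL) and 221 to 1317 narrower (221 without 129O1 OPC, 230 without EpiSC5 OPC, 232 without EpiSC5 OL). The line comparison gave 0 Hox genes in every setting but 10 kb, with 9 Hox genes, 9 genes in all and 2 wider in EpiSC5. Requiring 50% of the body left 8, 4, 5 and 3 Hox genes (OPC 129O1, OPC EpiSC5, OL 129O1, OL EpiSC5). The higher-scoring 50% left 2 in EpiSC5 OL, SOX6 on 2 genes and 1.05 kb in 129O1 OPC and on 0 genes and 0 kb in OL; with 20 kb beside the clusters SOX6 in OL covered 0.772 kb. The 9 genes of the 129O1 pattern became 5 with the higher-scoring 50% of the 129O1 lists, and 5 with that of each list, settings added after seeing the data. Hoxb3 was called with a 1 kb filter (limma adjusted p = 0.0440), equal peak numbers (0.0486) and 10 kb (0.0421), against 0.0695; equal numbers lost Hoxa5 (0.0604). The adjusted p of Hoxa3 and Hoxa5 ranged over settings from 0.0262 to 0.338 and from 0.0298 to 0.425. No called Hox gene changed direction. Unscaled medians over all genes were -0.10 for state and 0.17 for line. Apart from what these settings construct, the cause was not tested. List length, not known depth, limits every absence.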

Other observations

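Just beyond the Hoxa13 end of HoxA a SOX6 peak was held by all 3 SOX6 lists, at chr6:52261739-52261992 in OPC of 129O1, chr6:52261696-52261947 in OPC of EpiSC5 and chr6:52261573-52261867 in OL of EpiSC5. Its fold in the authors' lists was 4.19, 4.98 and 7.12. H3K27ac was on it in OL of EpiSC5 alone (chr6:52261246-52262198, −log10 q of 5.7), whereas both OPC lists and OL of 129O1 had none there. Hoxa13 and Hoxa11, the nearest Hox genes, had no peak of either kind on the body. This place lies outside the cluster as measured above and was singled out after its values were seen.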
